A study of Mus musculus with 6 samples.

Results

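The genes described here encode chromatin remodellers and the enzymes and readers of histone and DNA marks, measured in mouse melanoma cells given interferon-gamma (IFN-gamma). Members were chosen by symbol, as the protein-coding entries of the authors' deposited table that belong to the Smarc, Arid, Chd, Kmt2, Setd, Ezh, Kdm, Hdac, Dnmt, Tet and Brd families. The rule found 93 entries under 92 symbols, of 39179 genes in all, and 90 of them entered the authors' test. Arid3c, Kdm5d and Smarca1 stood under 0.05 FPKM in both groups and were not tested. The families themselves were selected on the FPKM ratios of this same comparison, which were known when the rule was written, so counts and medians over the members are a description and carry no test.

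The IFN-gamma group held 3 libraries of B16F10.9 cells, a pigmented melanoma line of C57BL/6 origin, after 24 h in recombinant mouse IFN-gamma (50 µg/ml as the labels give it, a unit that is unusually large for this cytokine). The untreated group held 3 libraries of the same line without the agent. Both groups come from 1 cell line, the labels name no genetic change in either, and they do not say how separate the cultures were. Levels are in FPKM, which divides the fragments of a gene by its length and by the size of the library, with 1 value for each gene and group. No SD can therefore be given, and the read depth is unknown. The words rose and fell are used for genes with q under 0.05 in the authors' deposited table. The smallest q listed there, 0.000187, is shared by the 4545 genes at the smallest p of 5e-05, among them 31 members that rose and 5 that fell. Ratios are IFN-gamma over untreated and were taken from the FPKM values without a pseudocount.

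The melanocyte genes in these cells matched the label, with all 6 markers at 78.7 FPKM or more in both groups. Of these, Mitf, Mlana and Sox10 rose, Tyr fell, and Pmel and Dct were not called. Sox10 stood at 195 FPKM in IFN-gamma cells, against 112 FPKM in untreated cells, and Tyr at 107 FPKM in IFN-gamma cells, against 142 FPKM in untreated cells. Ptprc (leukocytes), Cd3e (T cells), Krt14 (keratinocytes) and Pecam1 (endothelium) were at or below 0.132 FPKM in both groups. Irf1, a transcription factor gene induced by IFN-gamma, was at 482 FPKM in IFN-gamma cells and 10.2 FPKM in untreated cells. In bulk RNA such as this, a change in every cell and a change in the mix of cell states cannot be told apart.

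DNA in the nucleus is wound around histones, and remodellers use ATP to slide, evict or exchange them. Other enzymes write marks on histone tails or on cytosine (methyltransferases), remove them (demethylases, deacetylases and TET dioxygenases), and bromodomain proteins bind acetylated histones. Trithorax-type methyltransferases of the KMT2 family mark active enhancers and promoters, whereas Polycomb complex PRC2, through EZH1 or EZH2, marks silenced genes. In melanoma, the SWI/SNF remodeller is known as a partner of the pigment cell factor MITF, and EZH2 and histone deacetylases have been studied as drug targets.

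More of these genes rose than fell. Among the 90 that entered the test there were 46 rises and 11 falls, and 33 members did not pass. Among the 13174 tested protein-coding genes 28.7% rose and 24.8% fell, and since the family was proposed on this contrast, nothing is read from the gap between these shares and those of the members, 51.1% and 12.2%. The ratio lay above 0 on the log2 scale in 69 members and below 0 in 21. The median log2 ratio of the members was 0.50, beside 0.07 for all tested protein-coding genes. At least 2-fold changes were found in 22 of the members that rose and in 1 that fell, and 11.5% and 9.95% of tested protein-coding genes rose or fell that far. At 1.5-fold the counts were 38 rises and 6 falls among members, beside 21.4% and 18.1% of tested protein-coding genes. The members nearest to the threshold were Chd2 and Kdm4c inside it (q = 0.0395 and 0.0334 in the authors' deposited table). Smarcd3 and Smarce1 lay just outside (q = 0.0524 and 0.0538 in the authors' deposited table).

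**Figure D1:**
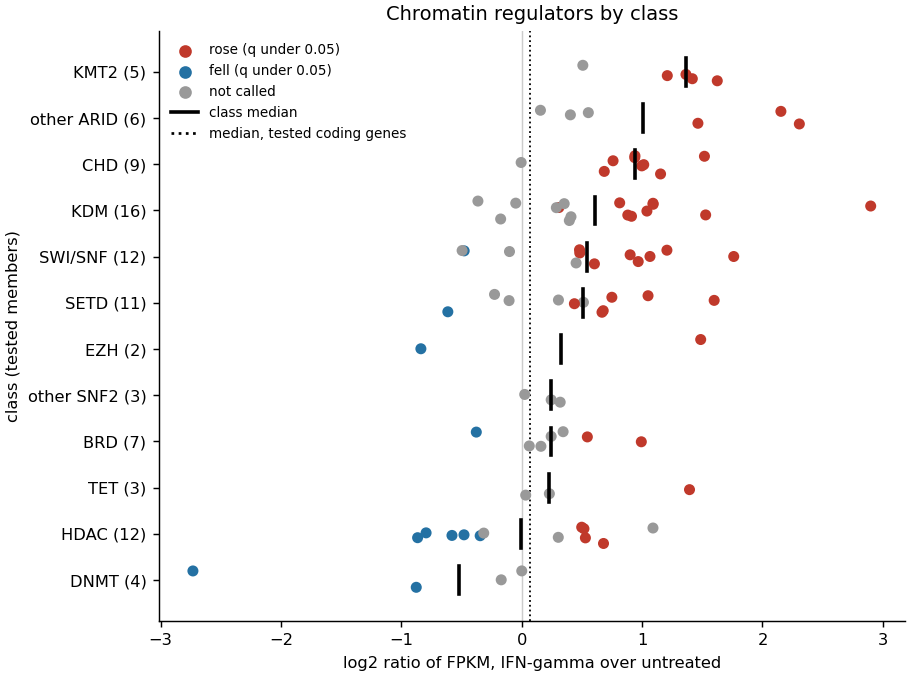
Log2 ratio of FPKM (IFN-gamma over untreated) on the horizontal axis for each tested member, 1 point per gene, by class from the highest median down. KMT2 has the highest class median (1.36) and DNMT the lowest (-0.52), and the HDAC class has members on both sides of 0.

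The largest rises among members of at least 1 FPKM in either group were those of Arid5a, Arid5b and Smarca2, and the largest falls those of Dnmt3b, Hdac1 and Ezh2. Arid5b reached 1 FPKM in IFN-gamma cells only, so its place in this order rests on the group where it is high. Their promoters are shown because these genes mark both ends of the range. The sequences are the 250 bases before the annotated start, 5′ to 3′ on the gene's strand, from RefSeq on GRCm38.p6, and capitals mark motif matches. The Arid5a window is chr1:36307483-36307732 (plus strand) and holds 3 GC boxes and a CCAAT box. The Arid5b window is chr10:68278727-68278976 (minus strand) and holds a GAS motif, the IFN-gamma-activated site, 172 bases before the start. The Smarca2 window is chr19:26604910-26605159 (plus strand) and holds 2 GC boxes. The Dnmt3b window is chr2:153649199-153649448 (plus strand) and holds 3 GC boxes. The Ezh2 window is chr6:47595031-47595280 (minus strand) and holds 3 CCAAT boxes. Hdac1 is named only.
Arid5a: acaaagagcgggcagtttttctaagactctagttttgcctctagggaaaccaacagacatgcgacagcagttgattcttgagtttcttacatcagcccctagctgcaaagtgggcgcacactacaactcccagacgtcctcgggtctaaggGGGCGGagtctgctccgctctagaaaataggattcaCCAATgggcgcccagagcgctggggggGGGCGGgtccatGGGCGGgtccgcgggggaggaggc
Arid5b: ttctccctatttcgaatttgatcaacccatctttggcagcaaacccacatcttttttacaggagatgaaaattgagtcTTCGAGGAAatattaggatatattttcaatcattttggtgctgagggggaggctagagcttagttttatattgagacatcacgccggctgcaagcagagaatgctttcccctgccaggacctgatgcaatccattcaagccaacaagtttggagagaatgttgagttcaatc
Smarca2: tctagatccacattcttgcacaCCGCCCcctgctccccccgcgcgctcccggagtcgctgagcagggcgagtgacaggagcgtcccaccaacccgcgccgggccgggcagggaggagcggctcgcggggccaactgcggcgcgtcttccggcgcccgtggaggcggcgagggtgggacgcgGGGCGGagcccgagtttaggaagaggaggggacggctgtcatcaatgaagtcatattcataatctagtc
Dnmt3b: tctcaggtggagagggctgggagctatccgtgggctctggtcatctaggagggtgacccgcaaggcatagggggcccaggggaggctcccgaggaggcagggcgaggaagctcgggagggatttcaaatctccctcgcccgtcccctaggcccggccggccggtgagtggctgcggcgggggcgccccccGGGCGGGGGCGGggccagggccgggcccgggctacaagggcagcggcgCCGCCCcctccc
Ezh2: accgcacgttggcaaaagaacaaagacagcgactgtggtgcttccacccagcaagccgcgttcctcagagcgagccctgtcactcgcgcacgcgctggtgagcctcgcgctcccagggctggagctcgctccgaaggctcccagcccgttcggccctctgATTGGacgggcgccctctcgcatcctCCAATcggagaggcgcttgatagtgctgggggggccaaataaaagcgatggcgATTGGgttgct

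Few of the members' promoters held an interferon motif. Windows of 300 bases (250 before the start and 50 after) were found for 71 member genes, with 99 starts, and compared with all 32851 promoters. On both strands, GAS (TTCNNNGAA) was in 10.1% of member promoters, against 8.30% of all promoters. ISRE (GAAA, any 2 bases and GAAA again), the element bound by IRF and STAT complexes, was in 2.02% of member promoters, against 3.44% of all. Of 40 promoters of genes that rose, 4 held GAS and 0 held ISRE, and of 12 promoters of genes that fell, 1 held GAS and 0 held ISRE. The GC box (GGGCGG) differed most in frequency, being in 69.7% of their promoters and 35.7% of all. Member promoters also had more G+C, with a median of 64.7% against 52.7% over all promoters. CCAAT was in 35.4% of member promoters and 37.4% of all, E2F (TTTNNCGC) in 5.05% and 5.17%, the M-box (CATGTG) in 8.08% and 14.2%, and the E-box (CACGTG) in 5.05% and 7.15%. These are matches of letters, overlaps between motifs were not removed, and nothing is drawn from them about binding.

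Among the subunits of SWI/SNF, the remodeller that opens promoters and enhancers, 8 of 12 tested members rose and 1 fell. Both of its alternative ATPases rose. Smarca2 (BRM) was at 69.6 FPKM in IFN-gamma cells, against 20.5 FPKM in untreated cells, a 3.39-fold rise (q = 0.000187 in the authors' deposited table). Smarca4 (BRG1) was at 55.8 FPKM in IFN-gamma cells and 26.7 FPKM in untreated cells, a 2.09-fold rise at the same q. Smarca2 thus passed Smarca4, with 55.5% of their summed FPKM in IFN-gamma cells and 43.5% in untreated cells. Smarcc2, a scaffold subunit, was at 15.8 FPKM in IFN-gamma cells and 6.85 FPKM in untreated cells. Its paralogue Smarcc1 was at 32.9 FPKM in IFN-gamma cells and 21.7 FPKM in untreated cells, and both rose. The ARID subunits, which set the complex's subtype, all rose. Arid1a was at 13.9 FPKM in IFN-gamma cells and 7.43 FPKM in untreated cells, and Arid1b at 8.60 FPKM in IFN-gamma cells and 4.40 FPKM in untreated cells. Arid2, the subunit of the PBAF form, was at 9.72 FPKM in IFN-gamma cells and 6.97 FPKM in untreated cells.

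The smaller SWI/SNF core subunits were mixed. Smarcd2 fell to 33.6 FPKM in IFN-gamma cells, against 46.9 FPKM in untreated cells (q = 0.00908 in the authors' deposited table). Its paralogue Smarcd1 rose, at 27.4 FPKM in IFN-gamma cells and 19.6 FPKM in untreated cells. Smarcb1 (SNF5), a tumour suppressor in rhabdoid tumours, was at 29.1 FPKM in IFN-gamma cells and 31.2 FPKM in untreated cells and was not called. Smarce1 was at 60.5 FPKM in IFN-gamma cells and 85.2 FPKM in untreated cells, and Smarcd3 at 17.6 FPKM in IFN-gamma cells and 12.9 FPKM in untreated cells. Neither passed the test. 
The SNF2 ATPases outside SWI/SNF were not called. Smarca5 (SNF2H), the motor of the ISWI nucleosome-spacing complexes, was at 24.8 FPKM in IFN-gamma cells and 24.4 FPKM in untreated cells. Smarcad1 was at 12.7 FPKM in IFN-gamma cells and 10.7 FPKM in untreated cells, and Smarcal1, which works at stalled replication forks, at 12.8 FPKM in IFN-gamma cells and 10.2 FPKM in untreated cells.

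Of the CHD remodellers, which are named for their chromodomains, 8 of 9 rose and none fell. Their median longest transcript was 9085 nt. Of other coding genes of 8000 nt or more and at least 1 FPKM, 61.2% rose and 6.03% fell. The NuRD ATPases stood highest. Chd4 was at 102 FPKM in IFN-gamma cells, against 51.3 FPKM in untreated cells, a log2 ratio of 1.00 (q = 0.000187 in the authors' deposited table). Chd3 was at 48.5 FPKM in IFN-gamma cells and 16.9 FPKM in untreated cells, a 2.86-fold rise at the same q. Chd3 took 32.1% of the summed FPKM of this pair in IFN-gamma cells and 24.8% in untreated cells. Chd6 was at 9.97 FPKM in IFN-gamma cells and 4.48 FPKM in untreated cells, and rose 2.22-fold. Chd8, a gene linked to autism in humans, was at 22.1 FPKM in IFN-gamma cells and 11.5 FPKM in untreated cells. Chd1, Chd2 and Chd9 rose by 0.69, 1.01 and 0.94 on the log2 scale. Chd7 rose too, but at 0.622 FPKM in IFN-gamma cells and 0.368 FPKM in untreated cells it was scarce in both. Chd5, mainly a neuronal gene, was at 0.182 FPKM in IFN-gamma cells and 0.183 FPKM in untreated cells.

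The ARID proteins outside SWI/SNF had 3 rises among 6 tested genes and no falls. Arid5a encodes an RNA-binding protein that stabilises inflammatory mRNAs such as that of Il6. Arid5a was at 23.9 FPKM in IFN-gamma cells, against 4.83 FPKM in untreated cells, a 4.95-fold rise (q = 0.000187 in the authors' deposited table). Arid5b, a partner of the demethylase PHF2, was at 3.81 FPKM in IFN-gamma cells and 0.856 FPKM in untreated cells, a 4.45-fold rise at the same q, and was under 1 FPKM in the untreated group. Arid4a, a subunit of SIN3 deacetylase complexes, was at 7.67 FPKM in IFN-gamma cells and 2.78 FPKM in untreated cells, and rose 2.76-fold. Its paralogue Arid4b was at 10.6 FPKM in IFN-gamma cells and 7.22 FPKM in untreated cells and was not called. Arid3a and Arid3b were near 1 FPKM in both groups and were not called.

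**Figure D2:**
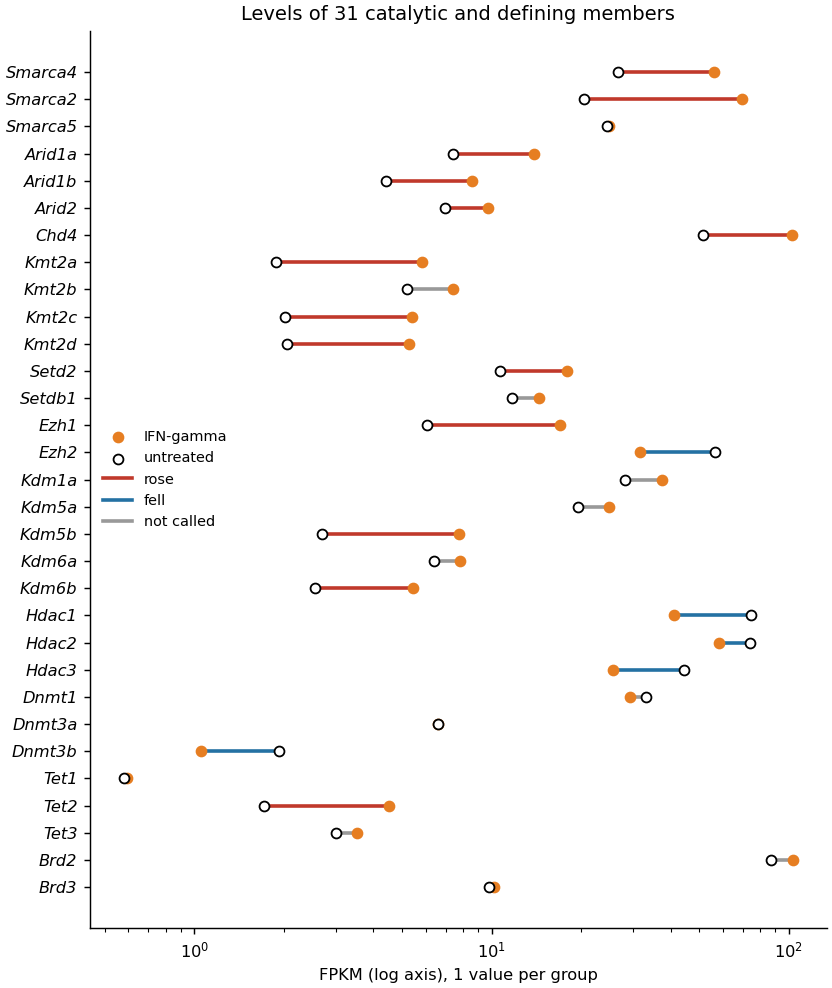
FPKM on a log axis for 31 catalytic and defining members, 1 filled point for IFN-gamma cells and 1 open point for untreated cells, joined by a line coloured by the call. Kmt2a, Kmt2c and Kmt2d stood near 2 FPKM in untreated cells and above 5 FPKM in IFN-gamma cells, and Hdac1, Hdac2, Hdac3, Ezh2 and Dnmt3b were lower in IFN-gamma cells.

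Of the KMT2 methyltransferases, which write H3K4 methylation, 4 of 5 rose, by 2.31-fold to 3.08-fold. Their median longest transcript was 14967 nt, and 61.2% of other coding genes of 8000 nt or more and at least 1 FPKM rose. Kmt2a (MLL1) was at 5.81 FPKM in IFN-gamma cells, against 1.88 FPKM in untreated cells, a 3.08-fold rise (q = 0.000187 in the authors' deposited table). The enhancer enzymes Kmt2c and Kmt2d moved by similar amounts. Kmt2c was at 5.41 FPKM in IFN-gamma cells and 2.03 FPKM in untreated cells, and Kmt2d at 5.27 FPKM in IFN-gamma cells and 2.05 FPKM in untreated cells. Kmt2e, which binds methylated H3K4 but is not known as an active enzyme, was at 13.6 FPKM in IFN-gamma cells and 5.86 FPKM in untreated cells. Kmt2b (MLL2 in the mouse) was at 7.39 FPKM in IFN-gamma cells and 5.19 FPKM in untreated cells and was not called.

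Of the SETD genes, whose shared SET domain serves different substrates, 6 of 11 rose and 1 fell. The other COMPASS-type enzymes were among the rises. Setd1b was at 3.35 FPKM in IFN-gamma cells, against 1.11 FPKM in untreated cells, a 3.03-fold rise (q = 0.00205 in the authors' deposited table). Setd1a was at 9.76 FPKM in IFN-gamma cells and 6.10 FPKM in untreated cells, but its test score in the authors' deposited table was 0.90 (q = 0.0330), one of 2 called members with a score under 1 in size. Setdb2 was at 10.1 FPKM in IFN-gamma cells and 4.86 FPKM in untreated cells, a 2.07-fold rise. Setd2, which writes H3K36 trimethylation along transcribed genes, was at 18.0 FPKM in IFN-gamma cells and 10.7 FPKM in untreated cells, a 1.68-fold rise (q = 0.0128 in the authors' deposited table). Setd5 and Setd7 rose by 0.67 and 0.44 on the log2 scale. Setd8 (KMT5A), the H4K20 monomethyltransferase that acts in mitosis, fell to 55.6 FPKM in IFN-gamma cells, against 85.0 FPKM in untreated cells. Setdb1, which silences retroelements through H3K9 methylation, was at 14.4 FPKM in IFN-gamma cells and 11.7 FPKM in untreated cells and was not called. Setd3, Setd4 and Setd6 were not called.

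The catalytic subunits of PRC2 moved in opposite directions. Ezh1 was at 17.0 FPKM in IFN-gamma cells, against 6.08 FPKM in untreated cells, a 2.80-fold rise (q = 0.000187 in the authors' deposited table). Ezh2, the form that is abundant in dividing cells, fell to 31.7 FPKM in IFN-gamma cells, against 56.6 FPKM in untreated cells, a log2 ratio of -0.84 at the same q. Ezh2 remained the higher of the pair, 1.86-fold over Ezh1 in IFN-gamma cells and 9.31-fold over it in untreated cells. Ezh1 took 35.0% of their summed FPKM in IFN-gamma cells and 9.70% in untreated cells.

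**Figure D3:**
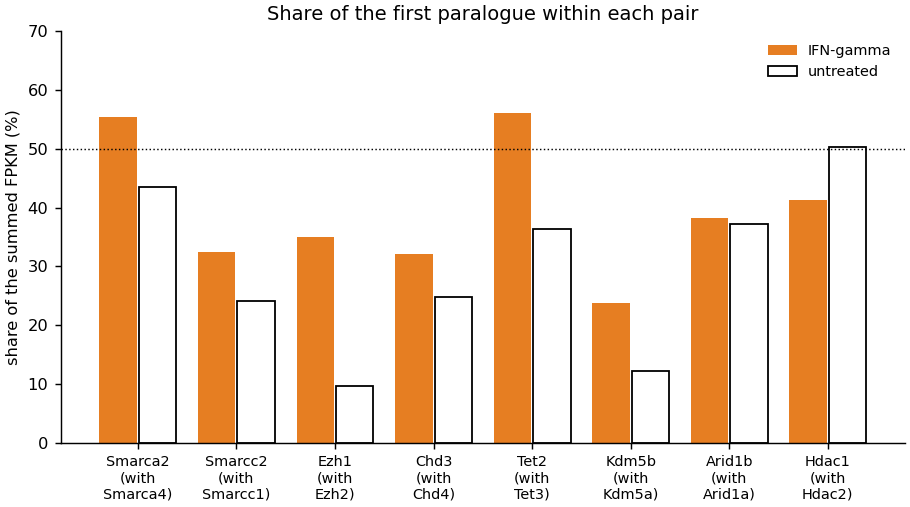
Share of the first paralogue in the summed FPKM of 8 pairs (percent), filled bars for IFN-gamma cells and open bars for untreated cells, with a dotted line at equal shares. Ezh1 and Tet2 gained most, Smarca2 and Tet2 crossed the line upwards and Hdac1 crossed it downwards.

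Among the lysine demethylases 9 of 16 tested members rose and none fell, beside 28.7% and 24.8% of all tested protein-coding genes. The rises were spread over enzymes of different marks. The H3K4 demethylase Kdm5b was at 7.77 FPKM in IFN-gamma cells, against 2.69 FPKM in untreated cells, a 2.88-fold rise (q = 0.000187 in the authors' deposited table). Kdm5c was at 14.9 FPKM in IFN-gamma cells and 7.90 FPKM in untreated cells and rose, whereas Kdm5a, at 24.9 FPKM in IFN-gamma cells and 19.5 FPKM in untreated cells, was not called. Of the H3K27 demethylases, Kdm6b (JMJD3), known from inflammatory macrophages, was at 5.43 FPKM in IFN-gamma cells and 2.55 FPKM in untreated cells, a 2.13-fold rise. Kdm6a (UTX) was at 7.84 FPKM in IFN-gamma cells and 6.42 FPKM in untreated cells and was not called. Kdm2a, an H3K36 demethylase, was at 23.8 FPKM in IFN-gamma cells and 11.2 FPKM in untreated cells, a 2.13-fold rise. The H3K9 enzymes Kdm3a and Kdm3b rose by 0.81 and 1.04 on the log2 scale, and Kdm4a and Kdm4c by 0.88 and 0.31. Kdm4d rose as well, but only to 0.208 FPKM in IFN-gamma cells, against 0.0279 FPKM in untreated cells. Kdm1a (LSD1), the flavin-dependent demethylase of the CoREST complex, was at 37.3 FPKM in IFN-gamma cells and 28.1 FPKM in untreated cells and was not called. Kdm1b, Kdm2b, Kdm4b and Kdm8 were not called.

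The deacetylases, which remove acetyl groups and are mostly found in repressor complexes, were split, with 4 of 12 entries rising and 5 falling. The falls took in the abundant class I enzymes. Hdac1 fell to 41.0 FPKM in IFN-gamma cells, against 74.7 FPKM in untreated cells, a log2 ratio of -0.86 (q = 0.000187 in the authors' deposited table). Hdac2 fell to 58.3 FPKM in IFN-gamma cells, against 74.0 FPKM in untreated cells, a log2 ratio of -0.34 (q = 0.0233 in the authors' deposited table). Hdac3, the enzyme of the NCoR complexes, fell to 25.6 FPKM in IFN-gamma cells, against 44.4 FPKM in untreated cells, a log2 ratio of -0.79. Hdac1 and Hdac2 were near equal in untreated cells and Hdac2 was the higher in IFN-gamma cells, where Hdac1 took 41.3% of their sum, against 50.2% in untreated cells. Hdac10, known as a polyamine deacetylase, fell to 6.70 FPKM in IFN-gamma cells, against 10.0 FPKM in untreated cells. Hdac9 fell at a low level, 0.255 FPKM in IFN-gamma cells and 0.355 FPKM in untreated cells.

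The deacetylases that rose were Hdac8, Hdac11 and Hdac4. Hdac8, a class I enzyme that acts on cohesin, was at 6.35 FPKM in IFN-gamma cells and 4.40 FPKM in untreated cells. Hdac11 was at 14.5 FPKM in IFN-gamma cells and 10.2 FPKM in untreated cells. Hdac4 has a pair of entries in the table. The longer was at 1.92 FPKM in IFN-gamma cells and 1.20 FPKM in untreated cells, and the shorter at 2.63 FPKM in IFN-gamma cells and 1.84 FPKM in untreated cells. The shorter entry, chr1:91928785-91931176 on GRCm38, lies within the span that GENCODE M21 gives to Hdac4, so both may describe 1 gene. Hdac5, Hdac6 and Hdac7 were not called. Hdac7 was at 5.34 FPKM in IFN-gamma cells and 2.51 FPKM in untreated cells (q = 0.163 in the authors' deposited table), and it shares its locus with Slc48a1, which was at 77.7 FPKM in IFN-gamma cells and 120 FPKM in untreated cells.

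None of the DNA methyltransferases rose, and 2 of 4 fell. Dnmt3b, an enzyme that sets new methylation, fell to 1.05 FPKM in IFN-gamma cells, against 1.93 FPKM in untreated cells, a log2 ratio of -0.88 (q = 0.000187 in the authors' deposited table). Dnmt3l, a germ-line cofactor, was called lower at 0.0502 FPKM in IFN-gamma cells and 0.333 FPKM in untreated cells, with a test score of -0.59 in the authors' deposited table. It shares its locus with Aire, which fell to 0.185 FPKM in IFN-gamma cells, against 2.83 FPKM in untreated cells, and the part of this in the Dnmt3l value was not tested. The maintenance enzyme Dnmt1 was at 29.3 FPKM in IFN-gamma cells and 33.0 FPKM in untreated cells, and Dnmt3a at 6.61 FPKM in both. Neither was called.

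Of the TET dioxygenases, which oxidise methylcytosine, only Tet2 rose. Tet2 was at 4.51 FPKM in IFN-gamma cells, against 1.71 FPKM in untreated cells, a 2.63-fold rise (q = 0.000187 in the authors' deposited table). Tet3 was at 3.52 FPKM in IFN-gamma cells and 3.00 FPKM in untreated cells, so that Tet2 took 56.1% of the summed FPKM of this pair in IFN-gamma cells and 36.4% in untreated cells. Tet1 was at 0.592 FPKM in IFN-gamma cells and 0.578 FPKM in untreated cells. Neither Tet1 nor Tet3 was called.

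Of the bromodomain genes 2 of 7 rose and 1 fell. The BET genes Brd2 and Brd3, which bind acetylated histones, were not called. Brd2 was at 103 FPKM in IFN-gamma cells and 87.2 FPKM in untreated cells, and Brd3 at 10.2 FPKM in IFN-gamma cells and 9.78 FPKM in untreated cells. Brd9, a subunit of the non-canonical SWI/SNF complex, was at 23.1 FPKM in IFN-gamma cells and 15.8 FPKM in untreated cells, a rise (q = 0.000187 in the authors' deposited table). Brd8, a subunit of the EP400 acetyltransferase complex, fell to 14.1 FPKM in IFN-gamma cells, against 18.3 FPKM in untreated cells. Brd1 and Brd7 were not called.

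The members that rose and those that fell differed in transcript length and level. The members that rose had a median transcript of 6755 nt and a median of 5.97 FPKM in untreated cells, and those that fell had 2747 nt and 44.4 FPKM. Among 83 members of known length and at least 1 FPKM in either group, Spearman's rho between length and log2 ratio was 0.57, and among 10777 other coding genes it was 0.38, each across genes of the same libraries. Between untreated level and log2 ratio, rho was -0.46 in members and -0.41 in other genes. Untreated level is also the denominator of the ratio, so these are not separate measures. The following counts are of these 83 members, beside other coding genes of at least 1 FPKM and the same length. Of 5 members under 2000 nt, 1 rose and 0 fell, with a median log2 ratio of 0.45, against -0.39 for other genes, of which 47.8% fell. Of 11 members of 2000 to 3000 nt, 2 rose and 6 fell, beside 22.8% and 31.6% of other genes. Their median was -0.49, against -0.07 for other genes. The medians of these shortest members thus did not follow the order of the other genes. The median under 2000 nt rests on only 5 members, of which only Hdac8 was called, so nothing is read from it. Of 6 members of 3000 to 4000 nt, 2 rose and 1 fell, beside 30.4% and 23.7% of other genes. Their median was 0.38, against 0.07 for other genes. Of 28 members of 4000 to 6000 nt, 10 rose and 2 fell, beside 41.8% and 15.3% of other genes. Their median was 0.31, against 0.29 for other genes, so members of this length were close to other genes. Of 13 members of 6000 to 8000 nt, 12 rose, beside 56.8% of other genes, and of 20 members of 8000 nt or more 16 rose, beside 61.2% of other genes.

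Set against the running median of other coding genes nearest in length, the median log2 ratio of the members was 0.17, with 55 above that trend and 34 below it. Of 45 members that rose and had a length, 43 lay above the trend, and Arid2 and Setd7 were the exceptions, at -0.12 and -0.14. All of the 11 members that fell lay below it, which the size of their falls had fixed in advance. The lowest trend value at their lengths was -0.22 (Dnmt3l), and the smallest fall was -0.34 (Hdac2). Both counts use the same ratios as the calls and give no separate support to them. The trend follows length only up to 9846 nt, past which the window stays on the longest genes, of 8231 nt and more. The 10 tested members past that point, 3 of them KMT2 genes, were therefore not set against genes of their own length, and the median of the other 79 was 0.16. The other ARID genes stood 0.70 above the trend at their median and KDM 0.43. HDAC stood at -0.40 and DNMT at -0.86, with all 4 of the DNMT genes below the trend. The trend was built on genes of at least 1 FPKM, but the members set against it were not filtered by level. Those under 1 FPKM include Dnmt3l and Hdac9, at -2.52 and -1.07 from the trend, and Kdm4d, at 2.95. The part of transcript length in the members' ratios was not tested. Of the 90 tested members, 44 share a locus with another listed gene, so their values rest on how fragments were assigned.

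**Figure D4:**
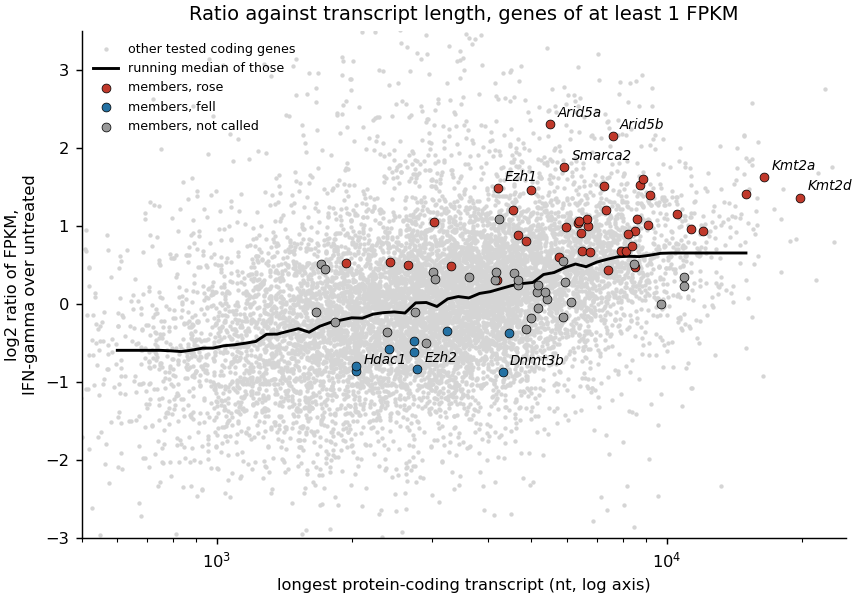
Log2 ratio of FPKM (IFN-gamma over untreated) against the longest protein-coding transcript (nt, log axis) for genes of at least 1 FPKM, members coloured by call over other coding genes in grey. The black line, the running median of the other genes, climbs with length up to 9846 nt and is flat past it. The members that fell lie below the line, as the size of their falls required. Dnmt3l and Hdac9 are not drawn because they were under 1 FPKM.

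Partner genes were listed by complex, mark or enzyme family, and most but not all share a complex or mark with the members. Of 141 tested partners in 14 lists 47 rose (33.3%) and 38 fell (27.0%), with a median log2 ratio of 0.15, and these shares are near the 28.7% and 24.8% of all tested protein-coding genes. As with the members, 63 of the tested partners share a locus with another listed gene, among them Kat2b, Bcl7c, Ep400 and Sirt3. Their values also rest on how fragments were assigned. The histone acetyltransferases had the largest share of rises, 7 of 10. Kat2b (PCAF) was at 98.9 FPKM in IFN-gamma cells and 32.2 FPKM in untreated cells, and Kat6a at 7.36 FPKM in IFN-gamma cells and 3.00 FPKM in untreated cells. Hat1, which acetylates newly made histone H4, fell to 77.1 FPKM in IFN-gamma cells, against 117 FPKM in untreated cells.

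The partner lists of the SWI/SNF and KMT2 enzymes, which are mostly non-catalytic subunits, held calls in both directions. Of 15 tested SWI/SNF partners 2 rose and 6 fell. Bcl7c fell to 13.8 FPKM in IFN-gamma cells, against 43.0 FPKM in untreated cells, and Actl6a (BAF53A) to 31.4 FPKM in IFN-gamma cells, against 68.2 FPKM in untreated cells. Ss18 rose, at 32.7 FPKM in IFN-gamma cells and 16.9 FPKM in untreated cells. Of 10 COMPASS partners 3 rose and 4 fell. Pagr1a fell to 4.40 FPKM in IFN-gamma cells, against 9.62 FPKM in untreated cells, and the core subunit Dpy30 to 46.2 FPKM in IFN-gamma cells, against 94.3 FPKM in untreated cells. The median longest transcript was 3314 nt in the SWI/SNF partners and 3141 nt in the COMPASS partners, beside 5168 nt in the SWI/SNF members and 14967 nt in KMT2.

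Of the Polycomb partners, the 9 PRC2 genes had 4 rises and 2 falls and the 18 PRC1 genes 5 rises and 7 falls. Phf19, which guides PRC2 to CpG islands, fell to 1.67 FPKM in IFN-gamma cells, against 4.28 FPKM in untreated cells. The PRC1 readers Cbx2 and Cbx8 fell, and the PRC1 subunit Phc3 rose. Cbx8 was at 11.9 FPKM in IFN-gamma cells and 31.4 FPKM in untreated cells, and Phc3 at 8.38 FPKM in IFN-gamma cells and 3.84 FPKM in untreated cells.

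Of the deacetylase corepressors 6 of 13 rose and 3 fell. Ncor1, a scaffold of the NCoR complex, rose, and was at 88.8 FPKM in IFN-gamma cells and 43.7 FPKM in untreated cells. Rcor2 fell to 1.31 FPKM in IFN-gamma cells, against 6.10 FPKM in untreated cells. Of the 9 NuRD partners 4 rose and 3 fell, among them Gatad2b, at 9.12 FPKM in IFN-gamma cells and 4.45 FPKM in untreated cells, and Mta2, which fell to 34.1 FPKM in IFN-gamma cells, against 55.9 FPKM in untreated cells. Of the 7 sirtuins 1 rose and 1 fell. The fall was that of Sirt3, mainly a mitochondrial enzyme, at 5.54 FPKM in IFN-gamma cells and 15.3 FPKM in untreated cells.

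Of the 7 arginine methyltransferases tested none rose and 3 fell. Prmt1, the main source of asymmetric arginine methylation, fell to 138 FPKM in IFN-gamma cells, against 288 FPKM in untreated cells. Of the 16 other lysine methyltransferases 4 rose and 4 fell, among them Ash1l, at 8.62 FPKM in IFN-gamma cells and 3.19 FPKM in untreated cells, and Suv39h2, at 3.74 FPKM in IFN-gamma cells and 7.37 FPKM in untreated cells. Of the 7 DNA methylation partners 2 rose and 3 fell. Uhrf1, which brings DNMT1 to newly copied DNA, fell to 50.7 FPKM in IFN-gamma cells, against 101 FPKM in untreated cells, while Dnmt1 itself was not called.

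Of 8 genes listed with the INO80, SRCAP and EP400 remodellers 3 rose and 1 fell. The list also took in Ttf2, a transcription termination factor outside these complexes, which was not called. Ep400 was at 33.9 FPKM in IFN-gamma cells and 8.49 FPKM in untreated cells, while Ruvbl2, a small helicase shared by these complexes, fell to 24.7 FPKM in IFN-gamma cells, against 61.7 FPKM in untreated cells. Of 8 tested ISWI partners 4 rose and 1 fell, with Baz2a at 17.9 FPKM in IFN-gamma cells and 6.53 FPKM in untreated cells, and Chrac1 at 32.5 FPKM in IFN-gamma cells and 87.3 FPKM in untreated cells. Of 6 further demethylase genes 3 rose and none fell, among them Phf8, at 3.96 FPKM in IFN-gamma cells and 1.92 FPKM in untreated cells.

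**Figure D5:**
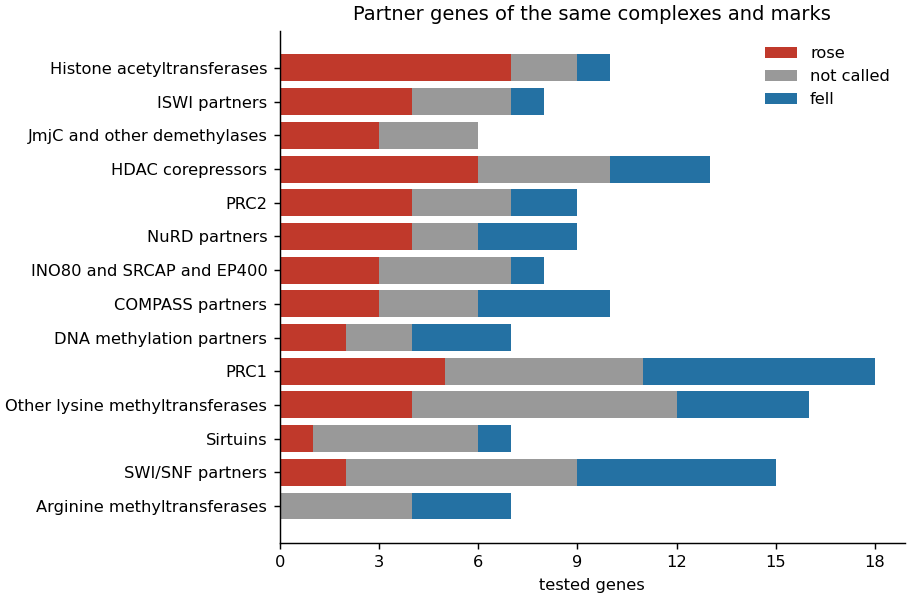
Number of tested partner genes (horizontal axis) that rose, were not called or fell in IFN-gamma cells against untreated cells, by list. Histone acetyltransferases had 7 rises among 10 genes, whereas the arginine methyltransferases had 0 among 7.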

How the data were processed

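Libraries of B16F10.9 RNA, 6 in all, were made with the TruSeq RNA V2 kit of Illumina per the labels' protocols, and this kit does not mark strand. The submitters' processing notes name the GRCm38 build, TopHat2 2.0.11, Cufflinks 2.2.1 and Cuffdiff. Settings and annotation release were not given in the sources used here. Per the file headers, the deposited table holds 1 FPKM for each group together with a p-value, a q-value and a test score made by the authors. A title line speaks of infected cells, but its sample cells name B16 and IFN and were followed.

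The table holds no value for each library, so no test across libraries was made and calls are the authors' deposited q-values under 0.05. Ratios were recomputed from FPKM. Members, classes, partner lists and alternatives were chosen with earlier results of these data known. Members of at least 1 FPKM in either group could be named, with the largest rises and falls of each class and a set of catalytic members described in full. For partner lists, up to 2 rises and 2 falls were eligible. Some genes picked by these rules are left out of the text. Lengths are the longest protein-coding transcript in GENCODE M21, found for 96.9% of tested coding genes. The length trend was a running median over 501 of 10777 other coding genes of at least 1 FPKM. It was run on simulated data in which the shifted genes were picked at random over all lengths. Only their median over all lengths was checked, so this does not show how the trend performs for mostly long genes such as the members. Promoters are from RefSeq (GRCm38.p6). Python 3.11.15, pandas 2.3.3, numpy 2.4.6 and matplotlib 3.10.9 were used. Alternatives were other fold and q thresholds, pseudocounts of 0.1 and 1, filters at 1 and 5 FPKM, scalings, the length trend and leaving out shared loci.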

Additional observations from a re-analysis of the deposited data

How the results depend on the processing

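No paired analysis was possible because the table has no value for each library, and for the same reason no library could be left out in turn. A median is said to have moved where it changed by more than 0.2 on the log2 scale. Of 90 tested members, the 46 rises became 22 at a 2-fold minimum, and the 11 falls became 6 at 1.5-fold and 1 at 2-fold. Without shared loci 46 members were left, of which 22 rose (47.8%) and 8 fell (17.4%), so the lower count comes with fewer members tested. With the length trend taken out, the median log2 ratio of the members was 0.17, and the class medians were 0.30 (SWI/SNF), -0.11 (other SNF2), 0.34 (CHD), 0.70 (other ARID), 0.71 (KMT2), 0.16 (SETD), -0.40 (HDAC), -0.86 (DNMT), -0.42 (TET) and -0.036 (BRD), and Arid2 (-0.12) and Setd7 (-0.14) reversed. These shifts are the trend removed by construction, and it is flat past 9846 nt, where 3 of the 5 KMT2 genes lie. The trend was built on genes of at least 1 FPKM, whereas these medians also took in members below that. A pseudocount of 1 FPKM gave 1.08 (KMT2), 0.38 (KDM) and -0.25 (DNMT). With at least 1 FPKM, medians were 0.41 (KDM), 0.30 (HDAC), -0.17 (DNMT) and 0.81 (TET), and with at least 5 FPKM 1.46 (other ARID), -0.32 (HDAC) and -0.085 (DNMT), from fewer genes. Without the shorter Hdac4 entry, an alternative chosen after seeing the data, HDAC was at -0.32. The HDAC median thus took either sign with the filter. Scaling to equal sums shifted every log2 ratio by 0.11, and centring on coding genes by 0.065 in size. Both shifts are smaller than the smallest called ratio (Kdm4c, 0.31), and a pseudocount cannot change the sign of a ratio. That none of the called members changed direction under these settings was therefore fixed in advance and tests nothing. Depth is unknown, so how well genes under 1 FPKM were measured cannot be given.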
